A study of Mus musculus with 24 samples.

Results

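Myosin light chains and the kinases that phosphorylate them were followed in mouse gastrocnemius muscle, as 8 genes of the 55416 in the count table: the light chains Myl1 (ENSMUSG00000061816), Myl2 (ENSMUSG00000013936), Myl3 (ENSMUSG00000059741), Mylpf (ENSMUSG00000030672) and Myl6b (ENSMUSG00000039824), and the kinases Mylk (ENSMUSG00000022836), Mylk2 (ENSMUSG00000027470) and Mylk4 (ENSMUSG00000044951). The genes were listed by symbol, and the family was chosen by a rise of Mylk already seen with SMC in some fits of these counts, so the SMC values of Mylk are given as a description with no test. All 8 passed the filter on low counts, among 16408 genes tested. RNA sequencing covered 24 C57BL/6J mice (spelled C56BL6J in the sample labels), bought when 8 weeks old, with 6 in each of 4 groups, sham or SMC of either sex. The SMC mice were kept inactive for 8 weeks in a small mouse cage, whereas sham mice were ambulatory. All were wild-type, and the labels name no other treatment. In the study some experiments paired sham with SMC mice in housing and others kept them in separate cages, and which applied to these mice is not given.

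Each myosin head carries an essential and a regulatory light chain on its lever arm. Fast and slow fibres draw these chains from different genes, so the set of chains in a muscle follows its fibre types. Myosin light chain kinases, which are switched on by calcium and calmodulin, phosphorylate the regulatory chain. In skeletal muscle this strengthens the contraction that follows, and in smooth muscle it is what starts contraction.

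Total counts per mouse ran from 23026627 to 36880413. The genes of fast fibres marked the tissue as fast skeletal muscle, since 10 of them summed to between 67236 and 153754 CPM (read counts scaled to depth, with TMM library sizes). Male sham replicate 4 and female sham replicate 7 stood apart, with slow fibre genes summing to 92.0 and 71.4 CPM against 648 or more in the other mice. Several fold changes of light chains and kinases that rest on them are given with and without them, and others with all mice only. Those of the slow and fast fibre genes are given with all mice only. These are whole-muscle samples, in which fewer cells of a type and less RNA per cell cannot be told apart.

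The start regions of 4 members are shown because the fast and slow chains, Myl6b and Mylk behaved differently in these mice. Each is the 250 bases before the start of the RefSeq gene, in GRCm38.p6, on the coding strand and 5′ to 3′. Capitals mark matches, on either strand, to the E-box CANNTG (bound by myogenic factors), the MCAT element CATTCC and the CArG box. MEF2 sites were also searched, and none of these 4 windows had a match.
Mylpf, chr7:127211358-127211607, strand plus: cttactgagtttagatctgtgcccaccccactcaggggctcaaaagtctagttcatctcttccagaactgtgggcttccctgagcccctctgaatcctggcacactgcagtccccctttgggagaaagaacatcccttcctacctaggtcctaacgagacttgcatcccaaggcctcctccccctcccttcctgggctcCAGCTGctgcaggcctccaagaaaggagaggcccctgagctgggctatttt
Myl3, chr9:110763428-110763677, strand plus: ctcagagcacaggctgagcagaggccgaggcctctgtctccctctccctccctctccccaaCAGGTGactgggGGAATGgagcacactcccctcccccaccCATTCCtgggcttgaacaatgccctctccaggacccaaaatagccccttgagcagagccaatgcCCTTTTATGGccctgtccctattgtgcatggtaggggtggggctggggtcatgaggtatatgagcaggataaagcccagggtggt
Myl6b, chr10:128498686-128498935, strand minus: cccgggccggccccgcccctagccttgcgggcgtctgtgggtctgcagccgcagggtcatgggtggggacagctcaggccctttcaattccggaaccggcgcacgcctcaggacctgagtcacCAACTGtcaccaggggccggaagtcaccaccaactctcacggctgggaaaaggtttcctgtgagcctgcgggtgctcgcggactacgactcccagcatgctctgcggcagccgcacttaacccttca
Mylk, chr16:34784700-34784949, strand plus: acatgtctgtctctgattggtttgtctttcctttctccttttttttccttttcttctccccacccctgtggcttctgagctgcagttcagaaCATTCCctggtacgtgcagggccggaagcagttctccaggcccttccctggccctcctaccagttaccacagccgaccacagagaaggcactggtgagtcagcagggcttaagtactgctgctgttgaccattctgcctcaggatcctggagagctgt
The slow chain Myl3 had 1 E-box, 2 MCAT elements and 1 CArG box, while Mylpf and Myl6b had 1 E-box each and Mylk had 1 MCAT element. Of 32851 such windows in the mouse table, 66.2% held an E-box, 12.6% an MCAT element, 2.92% a MEF2 site and 1.47% a CArG box, so an E-box alone is common. A match describes the letters and not the binding of a factor. Each printed window lay at the start of 1 annotated transcript, of 6 for Mylpf, 5 for Myl3, 2 for Myl6b and 8 for Mylk. The counts are per gene, so a window need not be the start of the RNA measured. Any link of these matches to the levels was not tested. The window of Mylk4 had 3 E-boxes and 1 MEF2 match, and it is not printed. The RefSeq windows of Myl1 and Myl2 did not lie at a transcript start of the GENCODE annotation and are not shown.

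Levels can be compared between genes only per length, here as CPM per kilobase of annotated exon, averaged over the 24 mice. The fast regulatory chain Mylpf was the most abundant member on this scale at 2343 ± 362 CPM per kilobase (SD, n = 24), followed by the fast essential chain Myl1 at 2173 ± 405. The skeletal muscle kinase Mylk2 came next at 248 ± 62.4, then Mylk4, a less studied kinase of the family, at 205 ± 57.8. The slow chains Myl3 and Myl2 were at 92.0 ± 45.2 and 83.5 ± 40.6 CPM per kilobase. Mylk, the kinase of smooth muscle and non-muscle cells, stood at 3.94 ± 0.774 and Myl6b, an essential chain found in slow fibres and outside muscle, at 2.20 ± 0.571. Ranges over mice overlapped for every pair of neighbours in this order except Myl1 and Mylk2. The overlap of Myl2 with Mylk came only from male sham replicate 4 and female sham replicate 7, each at 1.15 CPM per kilobase of Myl2. In the other mice Myl2 was at 22.3 or more, against at most 5.40 for Mylk. By this measure the fast chains far exceeded the slow ones. Myl3 made up 4.36% of the counts per length of the essential pair Myl1 and Myl3 on average over the 24 mice, between 0.0635% and 8.96%. Myl2 made up 3.61% of the regulatory pair Mylpf and Myl2, between 0.0373% and 7.96%.

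**Figure D1:**
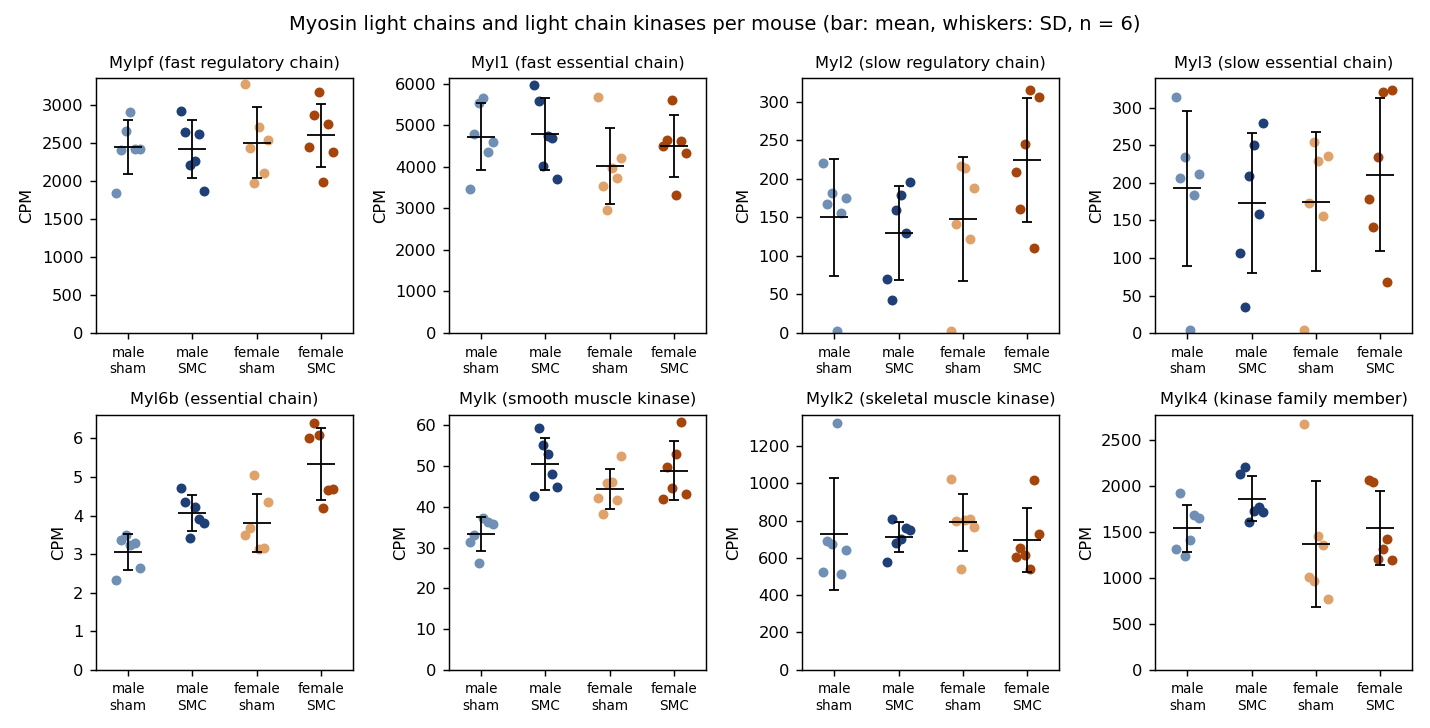
CPM of the 8 genes in each of the 24 mice, by group, with each point a mouse, the short horizontal bar the group mean and the whiskers the SD (n = 6). Mylk in SMC males, from 42.8 to 59.3 CPM, lies above all sham males, whose highest value was 37.3, and Myl2 and Myl3 are close to 0 in 1 male and 1 female sham mouse.

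SMC was compared with sham to ask whether inactivity changed the family. In the 12 males 0 of the 7 members other than Mylk passed an edgeR false discovery rate (FDR) of 0.05, where 0% of all 16408 genes did, and 1 of the 7 (Myl6b) had an unadjusted p under 0.05, as did 11% of all genes. In females 0 of 7 passed, against 0.341% of all genes, and Myl6b again had an unadjusted p under 0.05, as did 12.5% of all genes. DESeq2 and limma also called 0 of the 7 in either sex. With the sexes averaged, 12 SMC against 12 sham mice, 1 of 7 passed, against 2.36% of all genes, and this was Myl6b, which rose. The median log2 fold change of the 7 was -0.013 in males, 0.17 in females and 0.091 averaged, beside -0.0044, -0.011 and -0.0088 over all genes tested. In data simulated at the same spread for the male comparison, 74% of genes changed by a log2 fold of 1 and 35% of those changed by 0.5 were called. The changed genes were picked at random and every gene was drawn independently. These rates are therefore not those of single members such as Myl2 and Myl3, whose SE in males was 0.654 and 0.673. The simulation also held 100 changed genes of each size, and its many calls eased the p needed to pass the FDR. The real male comparison called 0 genes, so the simulated rates can overstate what it could call.

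The fast chains carry the bulk of light chain RNA. Mylpf lay between 1842 and 2909 CPM (median 2419) in sham males and between 1861 and 2920 (median 2438) in SMC males. Female sham mice had 1973 to 3272 CPM of Mylpf (median 2479) and female SMC mice 1981 to 3168 (median 2595). The groups overlapped over nearly their whole range. The log2 fold change of Mylpf was -0.013 in males (SE 0.137, edgeR FDR 0.983) and 0.054 in females (SE 0.137, edgeR FDR 0.916), with 95% intervals from -0.30 to 0.27 and from -0.23 to 0.34. Sham males had 3465 to 5658 CPM of Myl1 (median 4686) and SMC males 3712 to 5975 (median 4707). In females Myl1 ranged from 2968 to 5676 CPM in sham (median 3851) and from 3310 to 5614 in SMC (median 4554). Here too sham and SMC mice overlapped in both sexes. Its log2 fold change was 0.017 in males (95% interval -0.30 to 0.34, edgeR FDR 0.981) and 0.16 in females (-0.16 to 0.49, edgeR FDR 0.731). Without female sham replicate 7 the female value was 0.29 for Myl1 and 0.15 for Mylpf.

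The slow chains varied more between mice than between groups. Myl3 was at 3.64 CPM in male sham replicate 4, with a group median of 210 and a highest value of 314, and in male SMC it ran from 34.0 to 280 (median 184). In female sham Myl3 ran from 3.55 CPM in replicate 7 to 254 (median 201) and in female SMC from 67.4 to 323 (median 206). Sham held both the lowest mouse and high mice in each sex, so the groups overlapped. Myl2, the regulatory chain of slow fibres and of the heart ventricle, was at 2.23 CPM in male sham replicate 4 (median 171, highest 220) and between 43.4 and 195 in male SMC (median 144). It was at 2.24 CPM in female sham replicate 7 (median 165, highest 217) and between 110 and 315 in female SMC (median 227). The same 2 mice were thus lowest for both chains. The log2 fold change of Myl2 was -0.21 in males (SE 0.654, edgeR FDR 0.944) and 0.60 in females (SE 0.655, edgeR FDR 0.775), and that of Myl3 was -0.15 (SE 0.673, edgeR FDR 0.962) and 0.27 (SE 0.673, edgeR FDR 0.915). Without the 2 low mice Myl2 was at -0.48 in males and 0.35 in females, and Myl3 at -0.42 and 0.012, again with no edgeR FDR under 0.05. The 95% intervals for Myl2 with all mice were -1.56 to 1.13 in males and -0.75 to 1.96 in females. They leave room for a change of more than a log2 fold of 1 either way in males and upward in females.

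The low values of Myl2 and Myl3 went with those of other slow fibre genes. Female sham replicate 7, male sham replicate 4 and male SMC replicate 14 had the lowest 3 sums of the 9 slow fibre genes and also the lowest 3 values of Myl2 and of Myl3. Across the 24 mice, with each group mean subtracted from log2 CPM, Myl2 and Myl3 had a Spearman correlation of 0.97 with each other. Over the 9 slow fibre genes the correlation with Myl3 ran from 0.72 to 0.98 (median 0.86) and with Myl2 from 0.71 to 0.95 (median 0.86). The genes most like Myl3 among 16407 were Myoz2 (0.98, a Z-disc protein of slow fibres), Myl2 (0.97), Myh2 (0.96), Ldhb (0.92) and Mb (0.92), and those most like Myl2 were Myl3, Myoz2, Myh2 (0.93), Tnnc1 (0.90) and Tnnt1 (0.88). Myh2, the heavy chain of oxidative fast fibres, was on the fast fibre list, where it ran with the slow chains. These correlations are descriptions, as all points share the 24 libraries and their depth and scaling.

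**Figure D2:**
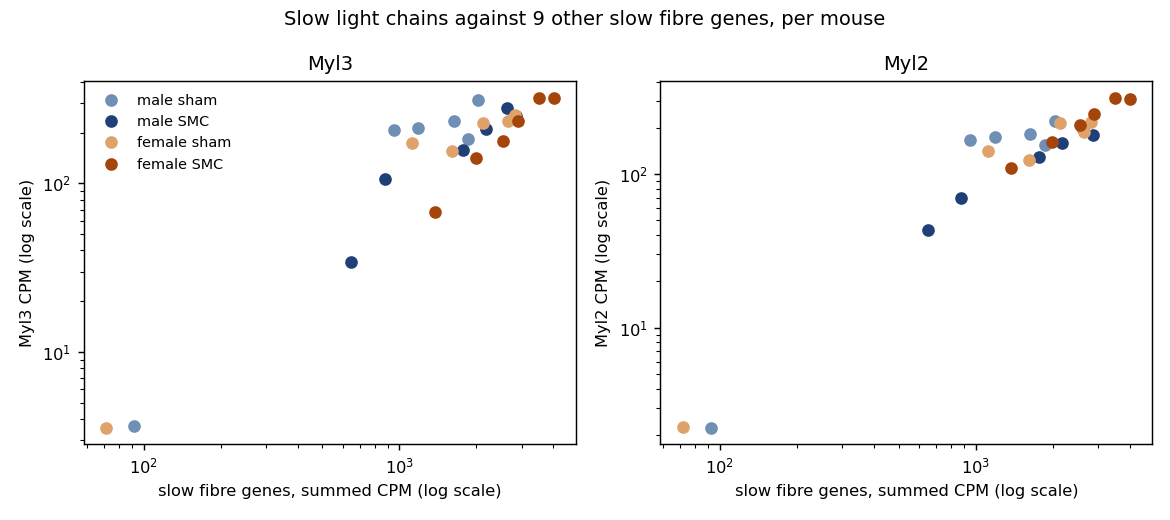
Myl3 (left) and Myl2 (right) in each of the 24 mice against the summed CPM of 9 other slow fibre genes, on log axes, coloured by group. Male sham replicate 4 and female sham replicate 7, with slow fibre sums of 92.0 and 71.4 CPM, lie far to the lower left in both panels, and the remaining mice of all groups are mixed.

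The slow fibre genes themselves did not pass the threshold with SMC (0 of 9 in each sex and averaged, edgeR FDR). In males, females and averaged, 0, 0 and 1 of them had an unadjusted p under 0.05, against 11%, 12.5% and 17.5% of all genes. Their log2 fold changes were positive for 6 and negative for 3 in males (median 0.55) and positive for 8 and negative for 1 in females (median 0.62). Csrp3, a muscle LIM protein named after its values were seen as the 1 with an unadjusted p under 0.05 averaged, was lowest at -1.12 in males and -0.77 in females. Myh7, the slow heavy chain, had log2 fold changes of 0.78 in males (edgeR FDR 0.757) and 0.76 in females (edgeR FDR 0.736), Tnnt1 of 0.58 and 0.62, and Tnni1 of 0.65 and 0.82. These slow fibre values include male sham replicate 4 and female sham replicate 7. Their slow fibre sums were 92.0 and 71.4 CPM, against sham medians of 1407 in males and 1870 in females. How far the positive values rest on these mice was not tested. Of the 10 fast fibre genes 0 passed, with 1, 0 and 1 at an unadjusted p under 0.05, against 11%, 12.5% and 17.5% of all genes. Myh4 was at 0.19 and 0.11, Myh1 at 0.49 and 0.35 and Myh2 at -0.27 and 0.10. Myl1 and Mylpf had a Spearman correlation of 0.92 with each other within groups and of -0.54 and -0.60 with Myl3. Ptp4a2 (0.92), the tropomyosin Tpm1 (0.92), Mylpf, the fast myosin binding protein Mybpc2 (0.91) and Pstpip2 (0.91) were most like Myl1. For Mylpf they were Tdrp (0.93), Myl1, Tpm1 (0.91), the fast fibre Z-disc gene Myoz1 (0.89) and Golm1 (0.89).

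Myl6b was the member that rose with SMC when the sexes were averaged. It was the scarcest of the family, resting on 72 to 177 reads per mouse. Sham males had 2.34 to 3.49 CPM (median 3.26) and SMC males 3.41 to 4.72 (median 4.07). Female sham mice had 3.13 to 5.05 CPM (median 3.60) and female SMC mice 4.20 to 6.40 (median 5.35). SMC mice were higher as a group in both sexes, with an overlap between the lowest SMC and the highest sham mice. Group means were 3.06 ± 0.462 and 4.07 ± 0.461 CPM in male sham and SMC, and 3.81 ± 0.751 and 5.34 ± 0.928 in female sham and SMC (SD, n = 6). The averaged log2 fold change was 0.45, a 1.37-fold rise (SE 0.0981, edgeR FDR 0.0175). By sex it was 0.42 in males (SE 0.140, edgeR FDR 0.270) and 0.48 in females (SE 0.138, edgeR FDR 0.112), neither of which passed. The averaged call held whichever of the 24 mice was left out and in the 6 fits with another model, scaling, filter or without the 2 low mice, where edgeR, DESeq2 or limma FDR lay between 0.00208 and 0.0453. Its neighbour on the same strand, Myl6, which encodes the essential chain of smooth muscle and non-muscle cells and is named after its values were seen, was at -0.035 and -0.065 in males and females. Myl6b varied with none of the cell type lists closely, with median within-group Spearman correlations between -0.11 and 0.24 over the 7 lists. Among the genes most like it were Gm14209 (0.74), Bambi (0.73), Tmem252 (0.72) and Rnf125 (0.71).

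Among the kinases, Mylk was the 1 whose sham and SMC males did not overlap. It lay between 26.1 and 37.3 CPM (median 34.5) in sham males and between 42.8 and 59.3 (median 50.5) in SMC males. In female sham it lay between 38.4 and 52.4 CPM (median 44.0) and in female SMC between 41.9 and 60.8 (median 47.3). All 6 SMC males were above all 6 sham males, as for 0.591% of all genes tested, whereas the females overlapped, where 0.396% of genes had all SMC above all sham. None of the other 7 members had all SMC mice above or all below all sham mice in either sex, while 0.311% of genes in males and 0.634% in females had all SMC below. Sham males averaged 33.4 ± 4.17 CPM and SMC males 50.6 ± 6.38, with 44.5 ± 4.88 and 48.9 ± 7.20 in females (SD, n = 6). The log2 fold change was 0.60 in males (SE 0.104), 0.14 in females (SE 0.103) and 0.37 averaged (SE 0.0732), and the male response exceeded the female one by 0.46 (SE 0.146). Male sham mice had the lowest levels of the 4 groups, and sham males lay at a log2 difference of -0.41 from sham females. Because the choice of the family rested on this rise, these values carry no test. Over the alternatives and mice left out, the male value lay between 0.48 and 0.64. Reads of Mylk and of the antisense genes E130310I04Rik and Gm21691, which overlap its exons over 548 and 224 bases, can be told apart only if strand was used in counting, and that setting is not given in the sources used here.

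Mylk2, the kinase of skeletal muscle fibres, and Mylk4 were many times more abundant per length. Sham males had 511 to 1321 CPM of Mylk2 (median 659) and SMC males 577 to 811 (median 724). In females it ran from 542 to 1022 CPM in sham (median 801) and from 539 to 1020 in SMC (median 634). The highest value was that of male sham replicate 4, and sham and SMC overlapped in both sexes. Its log2 fold change was -0.029 in males (SE 0.192, edgeR FDR 0.976), or 0.22 without that mouse, and -0.19 in females (SE 0.192, edgeR FDR 0.755). Without female sham replicate 7 the female value was -0.096. Sham males had 1242 to 1918 CPM of Mylk4 (median 1529) and SMC males 1606 to 2202 (median 1750). In female sham it ran from 772 to 2669 CPM (median 1183), the top value being that of replicate 7, and in female SMC from 1196 to 2058 (median 1368). The groups overlapped in both sexes. The log2 fold change of Mylk4 was 0.27 in males (SE 0.220, edgeR FDR 0.709) and 0.17 in females (SE 0.220, edgeR FDR 0.819), and without female sham replicate 7 the latter was 0.48. The 2 mice lowest in slow chains were also the highest of their sham group in Mylk2, Myl1 and Mylpf. Within groups Mylk2 had Spearman correlations of -0.43 with Myl3 and -0.50 with Myl2, and Mylk4 of -0.49 and -0.42. The genes most like Mylk2 were Mex3d (0.91), Gm48199 (0.86), Pnpla7 (0.81), Nsfl1c (0.81) and Hbp1 (0.79). For Mylk4 they were Srp72 (0.84), Rcsd1 (0.83), Gm17167 (0.81), the clock-linked factor Tef (0.80) and Mettl13 (0.79).

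**Figure D3:**
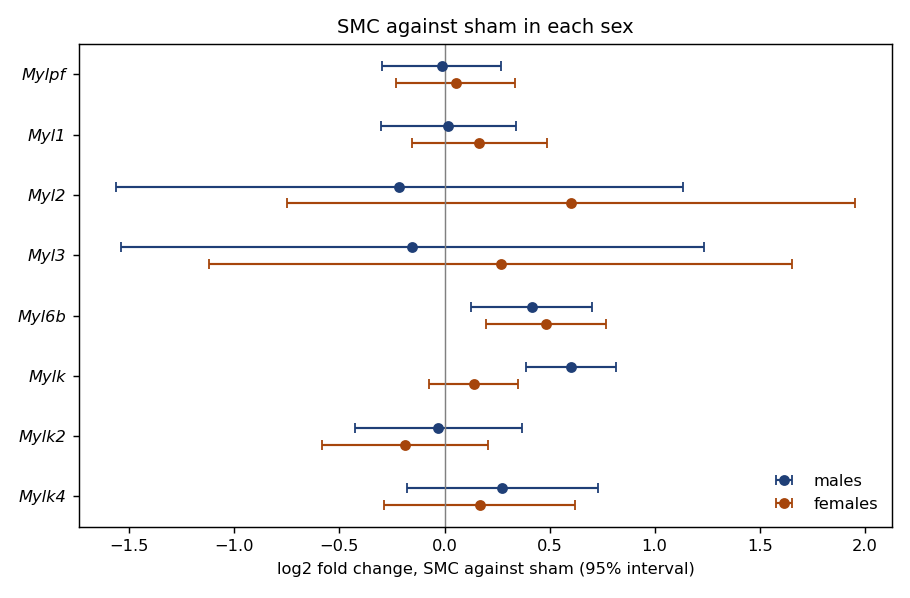
Log2 fold change of SMC against sham for each gene in males and females, with 95% intervals from the edgeR fit. Mylk in males (0.60) and Myl6b in both sexes (0.42 and 0.48) lie to the right of 0, and the intervals of Myl2 and Myl3 are the widest. Myl6b did not pass the edgeR FDR in either sex alone. Mylk is shown as a description, and its interval is not a test, because its rise guided the choice of the family.

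The remaining genes of the pathway were 21 listed light chains, kinases, calmodulins and myosin phosphatase genes, of which 20 were tested, the atrial chain Myl7 having no counts in any mouse. In males 0 of 20 and in females 0 of 20 passed the edgeR FDR, with 5 and 3 at an unadjusted p under 0.05, where 11% and 12.5% of all genes were. DESeq2 called 1 and 2 of the 20, against 0.652% and 1.63% of all genes, and limma called 0 in each sex. Averaged over the sexes 2 rose and 0 fell, where 1.03% of all genes rose and 1.33% fell. Its 20 genes had a median log2 fold change of 0.013 in males, -0.0017 in females and -0.029 averaged.

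Both genes that rose belong to the smooth muscle machinery. Myl9 (ENSMUSG00000067818), the regulatory chain of smooth muscle and the substrate of Mylk, lay between 14.8 and 21.7 CPM (median 16.6) in sham males and between 21.3 and 31.5 (median 23.1) in SMC males. In females it lay between 13.6 and 18.8 CPM in sham (median 17.2) and between 19.5 and 31.5 in SMC (median 22.03). All 6 SMC females were above all 6 sham females, as for 0.396% of all genes tested. In males the lowest SMC mouse lay just under the highest sham mouse. Its averaged log2 fold change was 0.48 (SE 0.0851, edgeR FDR 0.00530). Ppp1r14a (ENSMUSG00000037166), which encodes an inhibitor of myosin phosphatase, ran from 1.85 to 2.30 CPM in male sham and from 2.34 to 3.63 in male SMC. All SMC males were thus above all sham males, as for 0.591% of all genes tested. In females it ran from 1.56 to 2.22 CPM in sham and from 2.11 to 3.08 in SMC, with an overlap. Its averaged log2 fold change was 0.48 (SE 0.0930, edgeR FDR 0.00945), a call lost without TMM scaling (0.34, edgeR FDR 0.0503). Myl9 and Ppp1r14a were named for passing the FDR in these counts, so their lack of overlap is not separate evidence. Calmodulin Calm2 was at 0.40 averaged (edgeR FDR 0.0910) and did not pass, and the atrial and embryonic chain Myl4 was at -0.72 in males (edgeR FDR 0.379). Without male sham replicate 4, Myl4 was at -0.37 in males.

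Markers of smooth muscle are given beside Mylk, Myl9 and Ppp1r14a. All 8 smooth muscle genes had positive log2 fold changes in both sexes, with medians of 0.66 in males, 0.40 in females and 0.53 averaged. Averaged over the sexes 5 of 8 passed the edgeR FDR, all higher, where 2.36% of all genes passed and 1.03% were higher. In each sex 0 of 8 passed, with 8 in males and 4 in females at an unadjusted p under 0.05, against 11% and 12.5% of all genes. DESeq2 called 3 of 8 in males and 1 in females, against 0.652% and 1.63% of all genes, and limma 1 and 0, against 0.567% and 0.0975%. Acta2, smooth muscle actin, rose by 0.73 on the log2 scale (SE 0.139, edgeR FDR 0.00867) and Myh11, the smooth muscle heavy chain, by 0.57 (SE 0.114, edgeR FDR 0.0112), while Tagln was at 0.39 (edgeR FDR 0.108). Leaving out single mice took the count of 5 down to as few as 2 (without male SMC replicate 18), and to 3 without any 1 of male sham replicates 1 and 2, female sham replicates 8, 11 and 12, and female SMC replicates 19, 20 and 23. The 8 genes summed to 747 to 924 CPM in male sham, 1057 to 1128 in male SMC, 609 to 974 in female sham and 981 to 1282 in female SMC, with no overlap in either sex. Synpo2, which skeletal muscle also expresses, made up 67.9% to 83.3% of that sum, and the other 7 genes summed to 143 to 178 CPM, 211 to 339, 149 to 217 and 186 to 304, with an overlap in females. None of the 8 was at 0 on average in any group, the lowest group mean being that of Cnn1 in male sham at 0.733 CPM. Within groups the Spearman correlation of Mylk with the 8 genes had a median of 0.32 (from -0.023 to 0.65). The share of smooth muscle RNA in these values of Mylk, Myl9 and Ppp1r14a was not tested.

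**Figure D4:**
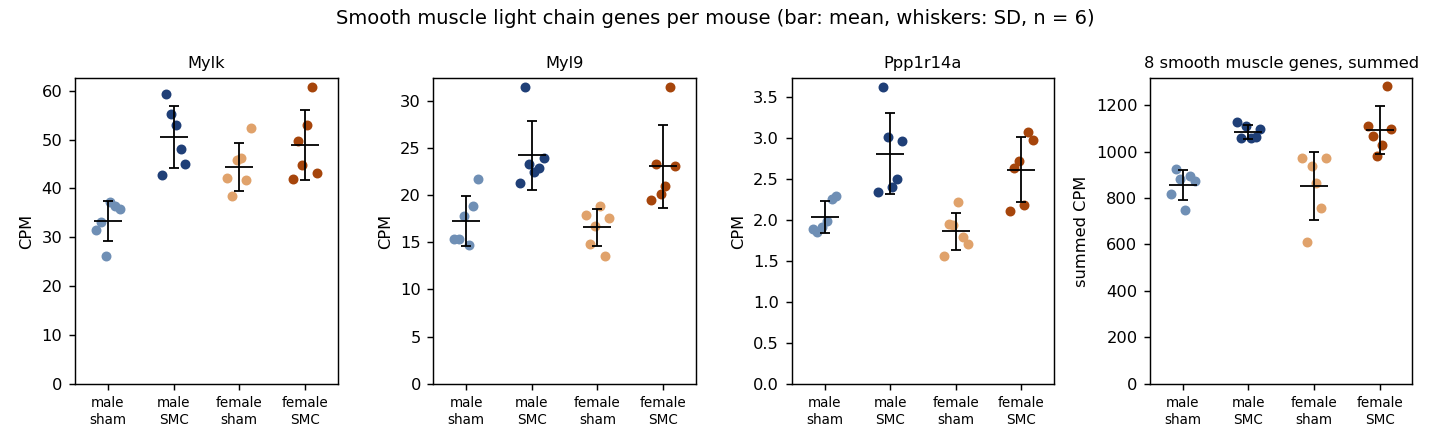
CPM of Mylk, Myl9 and Ppp1r14a, and summed CPM of the 8 smooth muscle genes, in each mouse by group, with mean (bar) and SD (whiskers, n = 6). For the summed genes all SMC mice of each sex lie above all sham mice of that sex, with 1057 to 1128 against 747 to 924 CPM in males.

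The other marker lists had fewer genes past the edgeR FDR averaged over the sexes. Of the 6 pericyte genes 1 passed the edgeR FDR averaged over the sexes, where 2.36% of all genes did. All 6 were positive, with a median of 0.15, and 3 had an unadjusted p under 0.05, against 17.5% of all genes. In males 2 of the 6 and in females 1 had an unadjusted p under 0.05, against 11% and 12.5%. Their sum ran from 694 to 835 CPM in male sham, 810 to 898 in male SMC, 681 to 825 in female sham and 820 to 864 in female SMC. Of 6 endothelial, 5 fibroblast and 3 genes of developing or regenerating fibres 0 passed averaged over the sexes. At an unadjusted p under 0.05 were 1, 0 and 0 of them, against 17.5% of all genes, and the medians were 0.077, -0.26 and -0.035. In the same order their sums over all groups ran from 171 to 380 CPM, from 435 to 1349 and from 24.4 to 64.7. The fibroblast average covers unlike sexes. All 5 fibroblast genes were negative in females (median -0.32), with 2 at an unadjusted p under 0.05, against 12.5% of all genes. In males 2 were positive and 3 negative (median -0.088), with 0 under 0.05, against 11%. For the interaction 1 of 5 was under 0.05, against 5.13%. None passed the edgeR FDR in these contrasts. Within groups Mylk had median correlations between -0.11 and 0.11 with all lists but smooth muscle. The genes most like Mylk were Catsper3 (0.71), Gm16574 (0.69), Cluap1 (0.68), Gm4285 (0.67) and Hnrnpul2 (0.66).

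Whether the SMC response differed between the sexes was tested directly. Of the 7 members 0 passed the edgeR FDR for the interaction, where 0% of all genes did, and 0 had an unadjusted p under 0.05, as did 5.13% of all genes. DESeq2 and limma also called 0. Differences in log2 fold change, males minus females, ran from -0.82 for Myl2 (95% interval -2.73 to 1.09) to 0.16 for Mylk2 (-0.40 to 0.72), and Myl6b was at -0.067 (-0.47 to 0.34). Of the 20 pathway genes 0 passed. Those with the smallest p were Myl12a (-0.49), Ppp1r12c (0.24) and Ppp1r12b (0.18), with edgeR FDR of 0.955, 0.958 and 0.967.

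Males were also compared with females, averaged over sham and SMC. This contrast had no part in the choice of genes, and all 8 members were tested. Myl6b passed and was lower in males, with a log2 difference of -0.36 (SE 0.0980, edgeR FDR 0.0330), so 1 of 8 members was called, against 4.93% of all genes (2.54% lower in males). Leaving out single mice lost the call for 9 of the 24 mice. It was also lost without TMM scaling (-0.34, edgeR FDR 0.0683), with no filter (-0.35, edgeR FDR 0.0746) and among sham mice alone (-0.32, edgeR FDR 0.255), where 1.97% of all genes passed. Mylk was at -0.18 (SE 0.0732, edgeR FDR 0.160). The other 6 lay between -0.39 for Myl2 (95% interval -1.34 to 0.57) and 0.22 for Mylk4 (-0.10 to 0.54), with edgeR FDR of 0.444 or more. Without the 2 mice low in slow fibre genes Mylk4 was at 0.38 (edgeR FDR 0.0559). Within the pathway list 1 of 20 genes passed. Ppp1r14b (ENSMUSG00000056612), another inhibitor subunit of myosin phosphatase, was higher in males (as were 2.39% of all genes), at 26.3 ± 4.59 CPM in sham and 26.3 ± 3.45 in SMC males against 18.6 ± 3.12 and 16.6 ± 2.56 in female sham and SMC (SD, n = 6), a log2 difference of 0.58 (SE 0.0894, edgeR FDR 1.78e-04). Mylk3, the kinase of heart muscle, was at -1.13 (edgeR FDR 0.0940) with mean levels under 0.5 CPM in every group, and Dapk3 at -0.18 (edgeR FDR 0.158).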

How the data were processed

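Gastrocnemius RNA of 24 mice was depleted of ribosomal RNA and sequenced as directional libraries. The authors deposited raw counts of reads per Ensembl gene, 1 column per mouse, without normalization. The submitters' processing notes name cutadapt 1.16, STAR 2.7.9a, featureCounts 1.6, DESeq2 1.34.0 and the build GRCm39 (mm39). The annotation release and strand setting are not given in the sources used here. Groups came from the sex and treatment in the sample titles. Members and lists were chosen with earlier results of these data known.

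Counts (23026627 to 36880413 per mouse) were filtered by filterByExpr, scaled by TMM (factors 0.854 to 1.32) and fitted with edgeR 4.0.16 in R 4.3.3, with 1 mean per group over all 24 libraries. The notes do not say how DESeq2 was used, and it was run here as an alternative. Tests were two-sided quasi-likelihood F tests with Benjamini-Hochberg FDR over 16408 genes, and the threshold was 0.05. P-values weigh differences between group means against the spread within groups of these 24 samples. Log2 CPM used a prior count of 2. Alternatives were DESeq2 1.42.0, limma 3.58.1 voomWithQualityWeights, no TMM, no filter, at least 10 counts in every library, 1 sex alone, sham mice alone, and mice left out. The pipeline was tested on simulated data. Of 60 pairs of libraries within groups none agreed within sampling noise (smallest chi-square per degree of freedom 10.3).

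Symbols (52083 of 55416 identifiers) and exon lengths came from GENCODE mouse annotation of GRCm38, matched by identifier, and no gene coordinates of it are given. RefSeq promoter windows held 7 of the 8 members, not Mylk2. A window was taken as lying at a start when a GENCODE transcript began within 50 bases. All 8 members were named, with the 3 pathway genes of smallest p per contrast and any past the threshold, 3 set genes each of the slow fibre, fast fibre and smooth muscle lists, and the 5 genes of highest Spearman correlation with each member, of which 1 is not reported here. Myl6, Myl7, Synpo2, Cnn1, Csrp3 and the antisense genes are outside that rule.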

Additional observations from a re-analysis of the deposited data

Results flagged for a closer look

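In 5 of 32 groups of 6 values (8 genes in 4 groups), 1 mouse lay far from the other 5 by the ratio of its gap to the group's range. About 1 in 20 groups, or 1.6 of 32, do so by chance. On the log2 CPM scale Myl3 was at 1.892 in male sham replicate 4, against 7.528 to 8.297 in the other 5, and at 1.858 in female sham replicate 7, against 7.289 to 7.992. Myl2 was at 1.205 in male sham replicate 4, against 7.279 to 7.782, and at 1.209 in female sham replicate 7, against 6.937 to 7.761. Mylk2 was at 10.37 in male sham replicate 4, against 8.998 to 9.431. The 5 values thus came from 2 mice, which also had the lowest sample weights in limma (0.283 and 0.370).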

How the results depend on the processing

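No paired analysis was possible because no pairing of sham with SMC mice is recorded for these samples. The replicate numbers, 1 to 24 over the series, are library numbers and name no pairs. The averaged rise of Myl6b kept its call in every fit, and its other calls, of sex, are given above with the fits that lost them. Without TMM the median log2 fold change of all genes was -0.133 in males, -0.148 in females and -0.143 averaged. The values that turned sign there did not exceed that shift in size: Myl1 at -0.10 in males and -0.027 averaged, Mylpf at -0.070 in females and -0.10 averaged, and Myl3 at -0.11 averaged. Ppp1r14a missed the threshold there (edgeR FDR 0.0503). Under limma Myl1 was at -0.0026 and Mylk2 at 0.14 in males, Mylk4 at -0.20 for the interaction and Myl3 at 0.0084 between the sexes. Without the 2 mice low in slow fibre genes Mylpf was at 0.032 and Mylk2 at 0.22 in males, Myl2 at -0.067, Myl3 at -0.20 and Mylk2 at 0.060 averaged, and Mylk4 at -0.24 for the interaction. Among sham mice alone Myl2 was at 0.023 and Myl3 at 0.14 between the sexes. None of these reversed values had an FDR under 0.05 before or after. Leaving out 1 mouse gave both signs for Myl1 in males (-0.066 to 0.071), Mylpf in males (-0.086 to 0.043), females (-0.0071 to 0.15) and averaged (-0.017 to 0.064), Myl3 in males (-0.42 to 0.059), averaged (-0.074 to 0.16) and between the sexes (-0.20 to 0.059), Mylk2 in males (-0.12 to 0.22), averaged (-0.18 to 0.017) and between the sexes (-0.17 to 0.031), and Mylk4 for the interaction (-0.21 to 0.21). The count of members called went from 0 to 1 in females without female sham replicate 9 (Myl6b, edgeR FDR 0.0434), ranging from 0 to 1 over mice left out. Between the sexes it was 0 without TMM and with no filter, and 0 to 1 over mice left out, being 0 without any of male sham 1 and 6, female sham 9 and 12, male SMC 15 and 18, and female SMC 19, 20 and 21. The pathway count was 1 in males and 2 in females under DESeq2, 4 averaged without the 2 low mice, and between the sexes 3 under limma and 2 without male sham replicate 4 (1 to 2 over mice left out). The smooth muscle count in males was 3 under DESeq2, 1 under limma and 1 without male sham replicate 5 (0 to 1 over mice left out), in females 1 under DESeq2, and averaged 2 with no filter (2 to 5 over mice left out). The causes were not tested. DESeq2 raised the genes called from 0 to 107 of 16408 in males. At 72 to 177 reads per mouse, Myl6b carries more counting error than the other members, apart from Myl2 and Myl3 in the 2 low mice.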
